A study of Macaca fascicularis with 1154 samples.

Results

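The 5 gene IDs described here are ENSMFAG00000038308, ENSMFAG00000018546, ENSMFAG00000044238, ENSMFAG00000032399 and ENSMFAG00000032300, of 28592 IDs in the deposited count table. Each was at a clear level in a minority of the cells of cultured monkey embryos and low or not read in the others. They were chosen from earlier comparisons of expression clusters in these same cells, by the log2 fold change and adjusted p of counts summed per cluster and collection. In the first comparison, run in the collections E11 B2, E17 B5, E19 B1 and E20 B2, ENSMFAG00000038308 and ENSMFAG00000018546 had been higher in a cluster, and ENSMFAG00000044238 and ENSMFAG00000032399 lower in it. In the second, run in E11 B2, E13 B2, E19 B1 and E20 B1, ENSMFAG00000032300 had been lower in another cluster. The first pair was thus expected together, and ENSMFAG00000044238 and ENSMFAG00000032399 in other cells. ENSMFAG00000032300 was listed with the latter, although the second comparison concerned another cluster and did not set it against the first pair. Since these values chose the IDs, shares and pairings in those collections are descriptions with no test.

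After implantation a primate embryo holds the epiblast, which forms the body and the germ cells, beside the hypoblast, trophoblast, amnion and extraembryonic mesenchyme. Each lineage switches on its own transcription factors, adhesion proteins and secreted proteins and keeps many genes of the other lineages off. Transcripts of such genes are therefore read in some cells of an embryo and not in others, and transcripts of the same lineage are read in the same cells. No gene symbols stand beside the IDs in the files, and 0 of the 28592 IDs were found in the gene table used here. The 5 IDs are thus given as deposited, with no gene function, cell type or sequence.

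Embryos of cynomolgus monkeys (Macaca fascicularis) grown in culture had been dissociated with trypsin, and single cells, each a sample, picked by mouth pipette and profiled with SMART-seq2, a full-length single-cell RNA sequencing protocol without molecular identifiers. Titles held a day (9, 11, 13, 15, 17, 19 or 20), a B number and the number of the cell, and in E13 B1 and E17 B1 also the letters pe and p. The meaning of the B number and the letters was not given. All cells with one day and one B number form what is called a collection here, so that E17 B5 is a collection of day 17. No genotype, treatment or cell type was given for any cell, and defining markers could not be looked up. Of 1154 samples, 600 had a column of estimated counts and 593 of these were kept, from 15 collections, at 107155 to 18828705 counts per cell with a median of 2660370. Kept cells per day ranged from 36 on day 9 to 139 on day 17. The other 554 samples were not analysed here.

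A cell was called positive for an ID at 10 or more counts per 1000000 of its counts (CPM). Levels were not divided by gene length, so they are compared between cells and not between IDs. ENSMFAG00000038308 was positive in 78 of 593 cells (13.2%, Wilson 95% interval 10.7 to 16.1%), at 10.2 to 1456 CPM with a median of 139.9. For ENSMFAG00000018546 there were 29 positive cells (4.89%, 3.43 to 6.94%), at 11.7 to 1108 CPM with a median of 96.3. Positive cells held 98.6% and 98.0% of the summed CPM of these IDs, so nearly all of their reads came from few cells.

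ENSMFAG00000032399 was the most widely detected of the 5, with 132 positive cells (22.3%, 19.1 to 25.8%) at 10.1 to 1651 CPM and a median of 92.0. ENSMFAG00000044238 had 58 positive cells (9.78%, 7.64 to 12.4%), at 10.1 to 1358 CPM with a median of 101.0. ENSMFAG00000032300 had the fewest, 19 cells (3.20%, 2.06 to 4.95%), at 11.5 to 4656 CPM with a median of 82.1. It was also the most uneven: its highest cell alone held 35.7% of its summed CPM, against 7.21% to 12.5% for the other 4 IDs. The intervals cover counting error only.

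Cells near the threshold were not rare beside the positive cells. Between 5 and 10 CPM there were 12 cells for ENSMFAG00000038308, 11 for ENSMFAG00000018546, 6 for ENSMFAG00000044238, 26 for ENSMFAG00000032399 and 3 for ENSMFAG00000032300. Between 10 and 20 CPM there were 13, 2, 5, 16 and 1, in the same order. The median positive cell held 247 to 429 reads of the ID. Fewer than 10 reads lay behind 10 cells positive for ENSMFAG00000038308, 7 positive for ENSMFAG00000032399 and 1 positive for ENSMFAG00000032300. Of the 593 cells, 345 (58.2%) were positive for none of the 5 IDs, 182 for 1, 64 for 2 and 2 for 3.

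**Figure D1:**
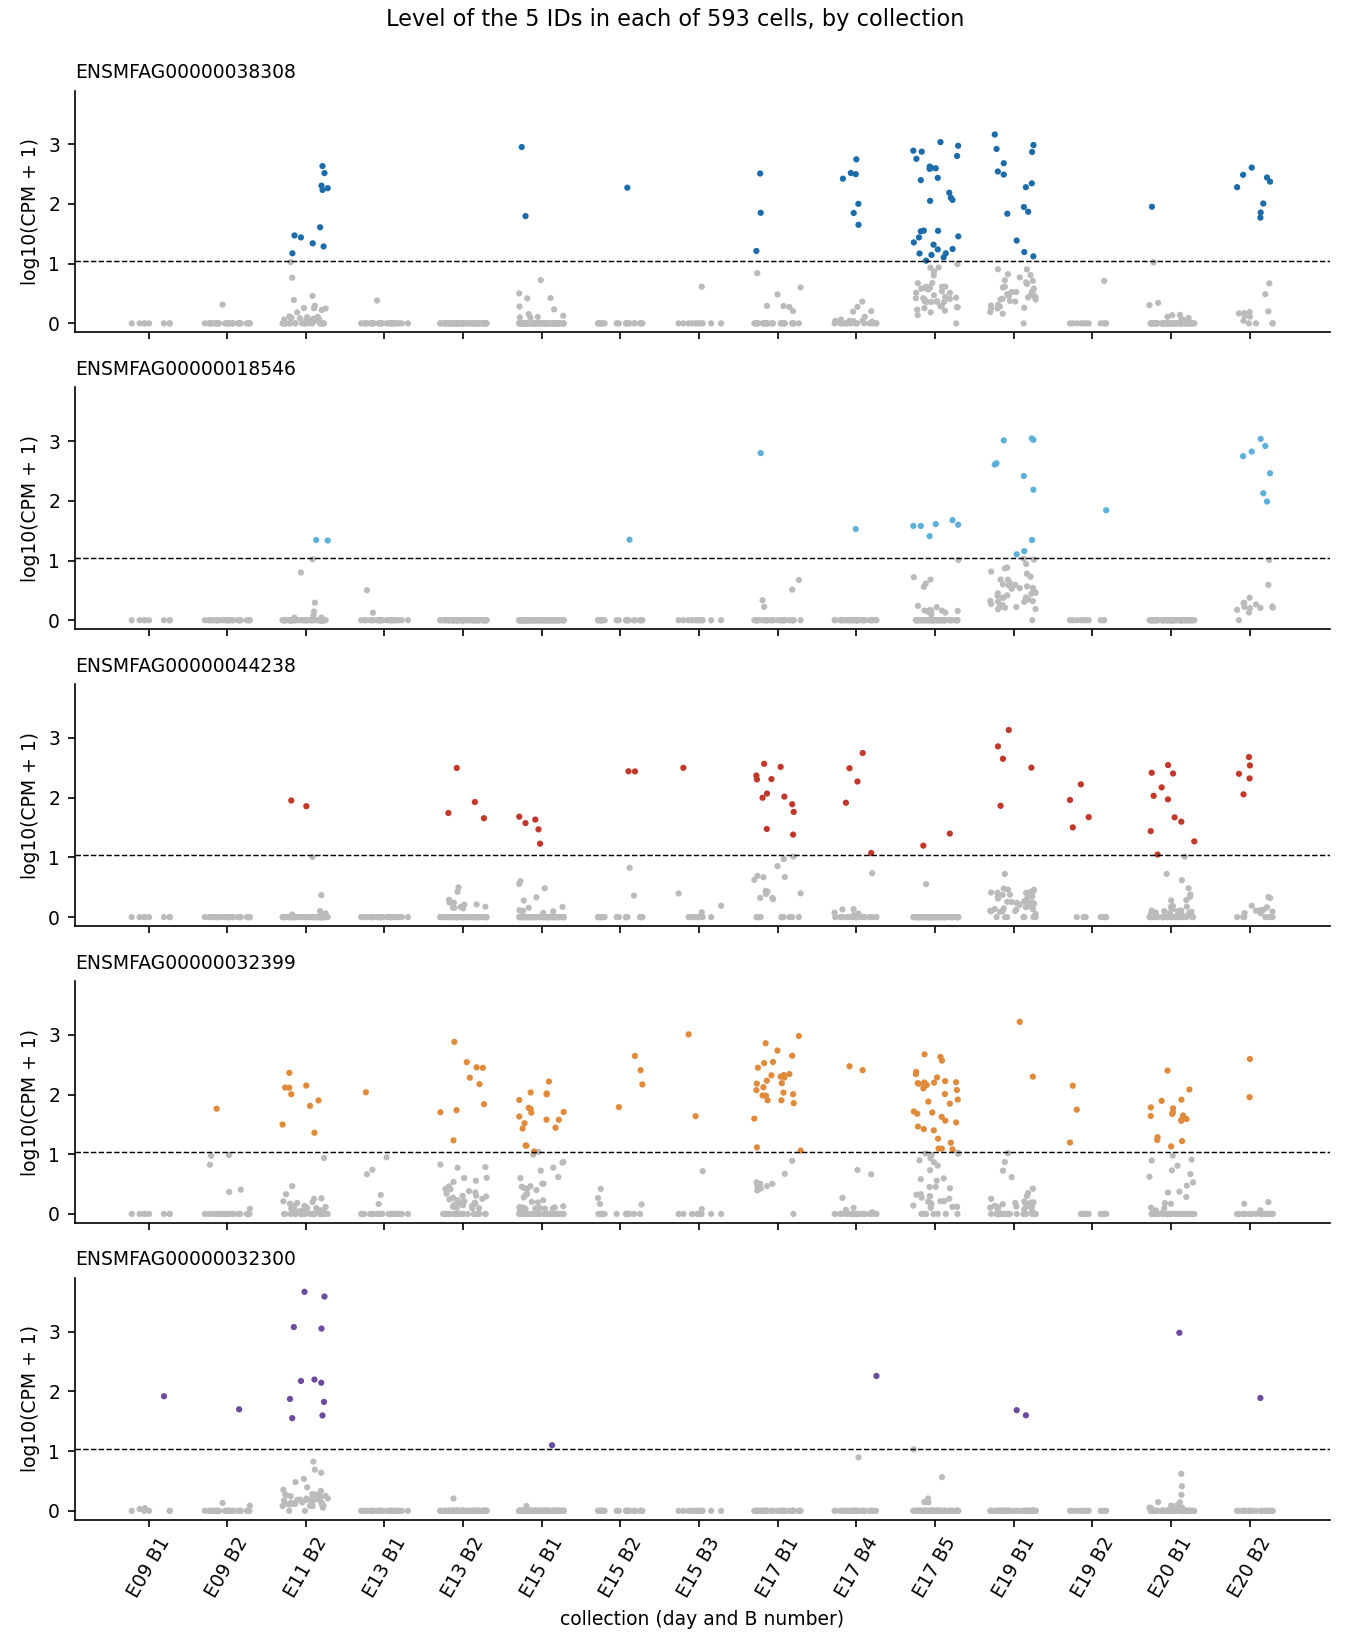
Level of each ID in each of 593 cells (vertical axis, log10 of CPM + 1), by collection (horizontal axis). Coloured points are cells at 10 CPM or more (dashed line) and grey points the others; ENSMFAG00000032300 has 11 of its 19 positive cells in E11 B2, and ENSMFAG00000038308 30 of its 78 in E17 B5.

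Positive cells of ENSMFAG00000038308 were found in 9 of 15 collections and were unevenly spread among them. No cell was positive in the 4 collections of days 9 and 13, which allows a share of up to 8.33% at day 9 and 3.19% at day 13. The single collection of day 11, E11 B2, had 11 of 57 positive cells (19.3%). At day 15 there were 2 positive cells of 87 in E15 B1, 1 of 22 in E15 B2 (4.55%) and 0 of 12 in E15 B3. At day 17 they were 8.11% in E17 B1, 22.6% in E17 B4 and 42.3% in E17 B5. Day 19 had 15 of 51 positive cells in E19 B1 (29.4%) and 0 of 11 in E19 B2, and day 20 had 1 of 63 in E20 B1 (1.59%) and 8 of 21 in E20 B2 (38.1%). Shares thus differed widely between collections of the same day, which is a description with no test, since cells of a collection are not replicates.

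ENSMFAG00000018546 was positive in 8 collections and in a smaller share of cells. It had 2 positive cells in E11 B2 (3.51%), 1 in each of E15 B2, E17 B1, E17 B4 and E19 B2, and 6 in E17 B5 (8.45%). Its highest shares were 19.6% in E19 B1 (10 of 51 cells) and 33.3% in E20 B2 (7 of 21), collections that were also high for ENSMFAG00000038308. In E20 B1, of the same day, 0 of 63 cells were positive, which allows up to 4.76%. The level in positive cells differed between collections too, with medians of 37.9 CPM in E17 B5, 331.2 in E19 B1 and 557.3 in E20 B2.

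ENSMFAG00000044238 was positive in 12 collections, and 0 of 36 cells were positive at day 9. Its share was 3.51% at day 11, 6.06% in E13 B2 and 0 in E13 B1. At day 15 it was 5.75% in E15 B1, 9.09% in E15 B2 and 8.33% in E15 B3. From day 17 on it ranged from 2.82% in E17 B5 to 36.4% in E19 B2, with 32.4% in E17 B1, 16.1% in E17 B4, 9.80% in E19 B1, 17.5% in E20 B1 and 23.8% in E20 B2. E17 B5, the lowest of these for ENSMFAG00000044238, was the highest of all collections for ENSMFAG00000038308.

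ENSMFAG00000032399 had positive cells in 14 collections, all but E09 B1 with its 8 cells. Shares were 3.57% in E09 B2, 15.8% in E11 B2, 3.57% in E13 B1, 15.2% in E13 B2, and 20.7%, 18.2% and 16.7% in E15 B1, E15 B2 and E15 B3. Day 17 held the widest range, with 73.0% in E17 B1 (27 of 37 cells), 47.9% in E17 B5 (34 of 71) and 6.45% in E17 B4 (2 of 31). At days 19 and 20 the shares were 3.92% in E19 B1, 27.3% in E19 B2, 27.0% in E20 B1 and 9.52% in E20 B2. E17 B5 was thus the only collection where more than 40% of the cells were positive for ENSMFAG00000038308 and more than 40% for ENSMFAG00000032399.

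ENSMFAG00000032300 was mostly a transcript of E11 B2, where 11 of 57 cells were positive (19.3%) at 34.7 to 4656 CPM. The other 8 positive cells were spread over E09 B1, E09 B2, E15 B1, E17 B4, E20 B1 and E20 B2 with 1 each and E19 B1 with 2. Without E11 B2 the share over all cells fell from 3.20% to 1.49%. In the 71 cells of E17 B5, where ENSMFAG00000038308 and ENSMFAG00000032399 were frequent, no cell was positive for it.

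**Figure D2:**
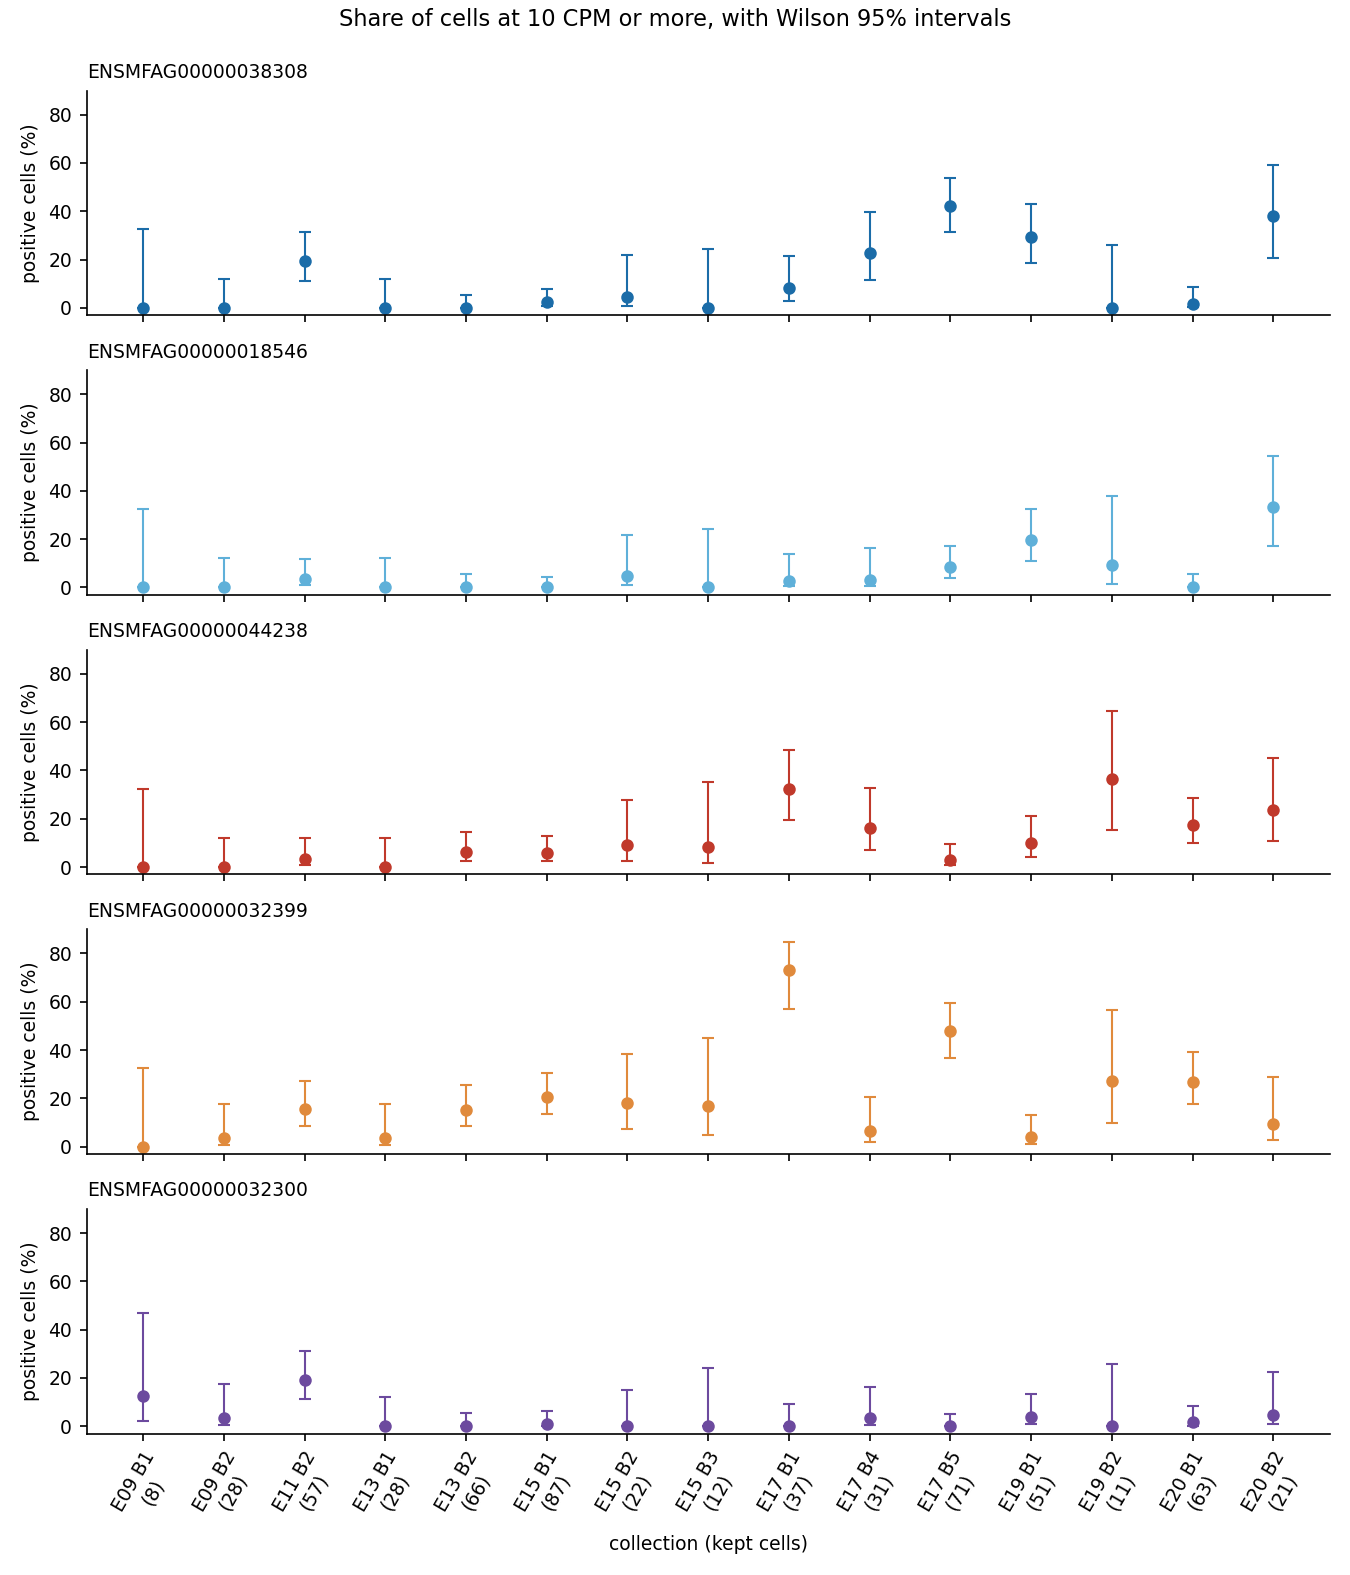
Percent of kept cells at 10 CPM or more (vertical axis) in each collection (horizontal axis, number of cells in brackets), 1 panel per ID, with Wilson 95% intervals. ENSMFAG00000032399 ranges from 6.45% to 73.0% among the 3 collections of day 17, and ENSMFAG00000038308 from 1.59% to 38.1% between those of day 20.

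None of the 5 IDs was called with the day when counts were summed per collection and fitted over all 16002 tested IDs (edgeR's quasi-likelihood test, 14 collections with at least 10 kept cells, Benjamini-Hochberg adjustment). In that fit 0.0125% of IDs were called, 0.00625% as rising and 0.00625% as falling with the day, so a count of 0 among 5 is no departure from the background. All 5 IDs had passed the filter on low counts. No label states whether collections were separate embryos, so the p-values cover only how much collections vary, and that spread may be technical. In bulk sums fewer positive cells and less RNA per cell cannot be told apart.

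ENSMFAG00000018546 had the steepest slope, 0.86 ± 0.28 log2 units per day (SE, n = 14 collections, edgeR unadjusted p = 0.00775, adjusted p = 0.573). Its CPM in the sums was 0 in 5 of the 14 collections, E20 B1 of day 20 among them, and reached 137.7 in E19 B1 and 217.5 in E20 B2. ENSMFAG00000044238 had a slope of 0.53 ± 0.25 per day (adjusted p = 0.878 with edgeR) and ENSMFAG00000038308 one of 0.33 ± 0.25 (adjusted p = 1.00). Without E11 B2 the slopes of ENSMFAG00000038308 and ENSMFAG00000018546 were 1.22 and 1.59, with adjusted p = 0.505 and 0.336. ENSMFAG00000032399 had a slope of 0.16 ± 0.11 and ENSMFAG00000032300 of -0.43 ± 0.24 (adjusted p = 1.00 and 0.992 with edgeR). The sign of the last rested on E11 B2, and it was 0.17 without that collection.

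ENSMFAG00000038308 and ENSMFAG00000018546 were on in the same cells. Of 29 cells positive for ENSMFAG00000018546, 25 (86.2%, Wilson 95% interval 69.4 to 94.5%) were also positive for ENSMFAG00000038308. The reverse did not hold, since 25 of 78 cells positive for ENSMFAG00000038308 (32.1%, 22.7 to 43.0%) were positive for ENSMFAG00000018546. Independent detection within each collection would have given 8.88 shared cells, so 2.81 times as many were seen. Shared cells were 10 in E19 B1, 6 in E17 B5, 6 in E20 B2 and 1 each in E11 B2, E17 B1 and E17 B4.

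In E19 B1 every one of the 10 cells positive for ENSMFAG00000018546 was also positive for ENSMFAG00000038308, in E17 B5 all 6, and in E20 B2 6 of 7. Most of this count came from the 4 collections that had chosen both IDs, with 23 shared cells against 8.53 expected. In the other 11 collections 14 cells were positive for ENSMFAG00000038308 and 4 for ENSMFAG00000018546, and 2 were shared against 0.352 expected. These few cells allow no test over collections. ENSMFAG00000018546 was positive in 19 of 43 cells (44.2%) with at least 100 CPM of ENSMFAG00000038308, and in 6 of 35 (17.1%) with 10 to 100 CPM. Within the 25 shared cells the levels were weakly related across cells (Spearman's rho = 0.109, a description over cells that share collections).

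ENSMFAG00000044238 and ENSMFAG00000032399 had been chosen for the same direction, not for each other. Of 58 cells positive for ENSMFAG00000044238, 27 (46.6%, 34.3 to 59.2%) were positive for ENSMFAG00000032399, which is 20.5% (14.5 to 28.1%) of the 132 cells positive for the latter. The expected number was 17.3, and the observed number lay above its expectation in 8 of the 12 collections that held both IDs and below it in 4. E17 B1 alone gave 11 of the 27 shared cells, from 12 and 27 positive cells, where 8.76 were expected. In E19 B1, 5 cells were positive for ENSMFAG00000044238 and 2 for ENSMFAG00000032399, and none for both. In the 11 collections outside the first comparison 23 cells were shared against 15.3 expected. Across the 27 shared cells the levels had a Spearman's rho of 0.502, again a description over cells of which 11 share a collection.

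Cells positive for either ID of the first pair were seldom positive for either of ENSMFAG00000044238 and ENSMFAG00000032399. There were 82 of the former and 163 of the latter, with 8 cells in common against 26.1 expected within collections. ENSMFAG00000018546 shared 0 cells with ENSMFAG00000044238, against 3.83 expected, and 0 with ENSMFAG00000032399, against 5.50. With 29 cells positive for ENSMFAG00000018546, a count of 0 leaves an upper Wilson bound of 11.7%. ENSMFAG00000038308 shared 2 cells with ENSMFAG00000044238, against 7.09 expected, and 7 with ENSMFAG00000032399, against 21.0. The last count is 8.97% of the cells positive for ENSMFAG00000038308, a share that depended on the limit and on E17 B5: it was 18.9% with a limit of 5 CPM, 18.6% with cells thinned to 100000 counts and 2.08% without E17 B5.

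Outside the 4 collections that had chosen these IDs the separation was less clear, with fewer cells to show it. There ENSMFAG00000038308 and ENSMFAG00000044238 shared 2 cells against 2.48 expected, so the shortfall of the pair came from the other 4 collections, where 0 were shared against 4.61. ENSMFAG00000038308 and ENSMFAG00000032399 shared 1 cell there against 3.51 expected, of which 2.19 were expected in E17 B1 and fewer than 1 in each other collection. For ENSMFAG00000018546 the counts were 0 against 0.940 with ENSMFAG00000044238 and 0 against 1.25 with ENSMFAG00000032399. A difference of about 1 cell was not detectable at these numbers.

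The 8 cells positive for IDs of both kinds were low in at least 1 of them. In E17 B5, 6 cells were positive for ENSMFAG00000038308 and ENSMFAG00000032399, and only cell 9, at 126.5 CPM, reached 100 CPM of the former, with 14.6 CPM (3 reads) of the latter. Cell 69 of E17 B5 had 151.2 CPM of ENSMFAG00000032399 and 26.5 CPM of ENSMFAG00000038308. Cell 29 of E17 B1 was positive for 3 IDs, with 234.1 CPM of ENSMFAG00000044238, 117.1 of ENSMFAG00000032399 and 15.3 of ENSMFAG00000038308. Cell 37 of E15 B1 had 61.6 CPM of ENSMFAG00000038308 and 36.6 of ENSMFAG00000044238. With 50 CPM as the limit 0 cells were positive for ENSMFAG00000038308 and either of ENSMFAG00000044238 and ENSMFAG00000032399. The 16 cells positive for any combination other than the 2 common pairs had a median of 8303 detected genes, against 6753 in all kept cells. Cells positive for exactly 2 IDs had a median of 7327.5. Most of the 16 came from E11 B2 and E17 B5, where all kept cells had medians of 8276 and 7512. Whether some of the 16 were more than 1 cell was not tested.

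**Figure D3:**
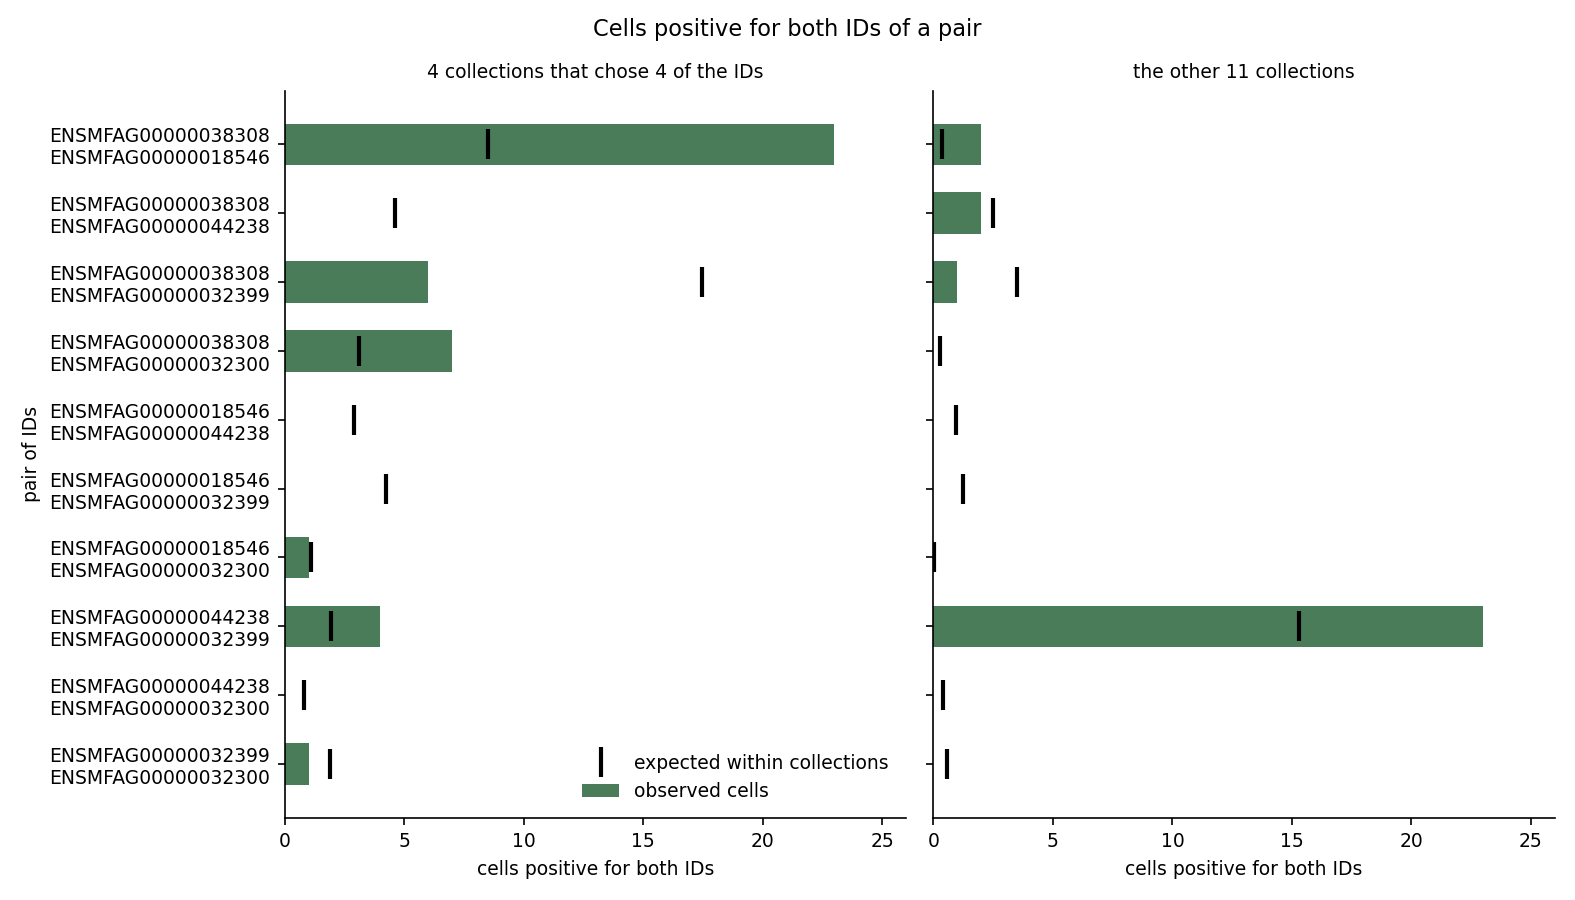
Number of cells positive for both IDs of each of 10 pairs (bars) and the number expected from independent detection within each collection (black marks), in the 4 collections that chose 4 of the IDs (left) and in the other 11 (right). ENSMFAG00000038308 and ENSMFAG00000018546 share 23 cells on the left against 8.53 expected, and ENSMFAG00000044238 and ENSMFAG00000032399 share 23 on the right against 15.3.

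ENSMFAG00000032300 shared part of its cells with ENSMFAG00000038308. Of its 19 positive cells 7 (36.8%, 19.1 to 59.0%) were positive for ENSMFAG00000038308, against 3.36 expected. These were cells 10, 45, 57 and 75 of E11 B2, 2 cells of E19 B1 and 1 of E20 B2. Expected counts there were 2.12, 0.588 and 0.381, so in E19 B1 and E20 B2 any shared cell lay above expectation. All 3 collections had helped choose ENSMFAG00000038308. Cell 45 of E11 B2 had 3880 CPM of ENSMFAG00000032300 and 327.6 of ENSMFAG00000038308, and cell 57 had 1127 and 201.4. In these cells both IDs were well above the limit. Other cells high in ENSMFAG00000032300 lacked ENSMFAG00000038308: cell 31 of E11 B2, the highest at 4656 CPM, and cell 59 of E20 B1, at 958.1 CPM, had no read of it, and cell 54 of E11 B2, at 1195 CPM, had 1.46 CPM. E17 B4, E15 B1 and E20 B1 held both IDs and no shared cell, where 0.265 were expected in all.

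With the remaining IDs ENSMFAG00000032300 shared few cells. It shared 1 cell with ENSMFAG00000018546 (1.14 expected), 0 with ENSMFAG00000044238 (1.21 expected) and 1 with ENSMFAG00000032399 (2.49 expected). The cell shared with ENSMFAG00000018546, cell 83 of E19 B1, was positive for 3 IDs at 23.4 CPM of ENSMFAG00000038308, 11.7 of ENSMFAG00000018546 and 47.5 of ENSMFAG00000032300. At these numbers neither separation nor sharing was detectable for the last 3 pairs.

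**Figure D4:**
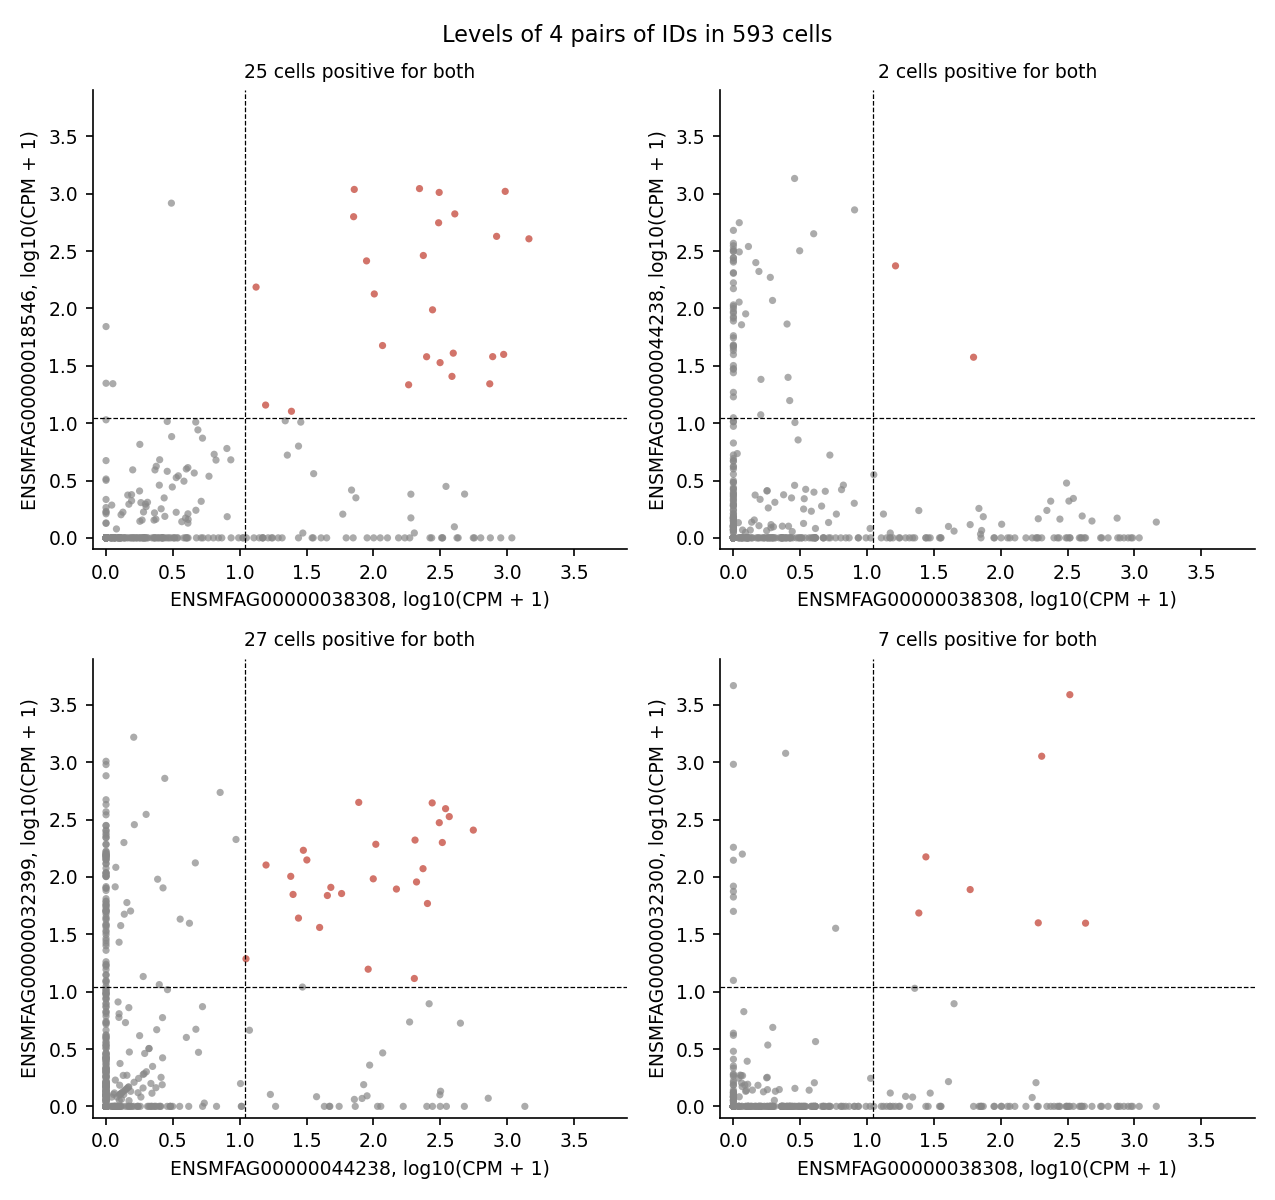
Levels of 4 pairs of IDs in 593 cells (both axes log10 of CPM + 1), with dashed lines at 10 CPM and red points for cells positive for both. ENSMFAG00000038308 shares 25 cells with ENSMFAG00000018546, 2 with ENSMFAG00000044238 and 7 with ENSMFAG00000032300. ENSMFAG00000044238 shares 27 with ENSMFAG00000032399. In every panel more cells are positive for 1 ID only than for both.

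A test outside the 4 collections of the first comparison could be run for a split of the cells by ENSMFAG00000044238 alone. This ID had at least 5 positive and 5 negative cells in E15 B1, E17 B1, E17 B4 and E20 B1, whereas ENSMFAG00000038308 had 2 such collections even at a minimum of 3 cells and ENSMFAG00000032300 had none. Counts were summed per collection and side, and fitted with the collection as a block over 14884 IDs, the split ID left out. No ID was called by edgeR's quasi-likelihood test (0 of 14884, 0%), with 533 IDs at an unadjusted p under 0.05 and the lowest adjusted p at 0.466, while DESeq2 called 403. The median ID lay at -0.60 log2 units. The other 4 members, all of which had passed the filter, are therefore values without a call. E20 B1 was among the collections that had chosen ENSMFAG00000032300, which was not among the tested IDs without it.

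ENSMFAG00000038308 had 17.6, 2.16, 0.158 and 0 CPM in the cells positive for ENSMFAG00000044238 in E15 B1, E17 B1, E17 B4 and E20 B1, and 2.11, 18.2, 52.3 and 1.07 CPM in the negative cells. It was lower on the positive side in 3 of 4 collections and higher in E15 B1, where 1 cell held all 288 of its reads on that side. Single cells weighed on other sums too. On the negative side of E15 B1, cell 25 held 485 of the 499 reads, and in E20 B1 only 1 cell was positive for ENSMFAG00000038308. In E17 B4, with 5 positive and 26 negative cells, ENSMFAG00000038308 was 330.9-fold lower in the positive cells, from 6 reads. Of the 7 cells positive for ENSMFAG00000038308 there, 1.13 were expected among those 5 and 0 were seen. The fitted difference was -4.63 ± 2.94 log2 units (SE, n = 4 collections, edgeR adjusted p = 0.965), and ranged from -6.59 without E15 B1 to -2.69 without E17 B4 with each collection left out. It was -7.70 with a depth covariate, -1.94 without the block and -0.37 with limma on mean log2(CPM + 1), and not called under any alternative.

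ENSMFAG00000032399 had 24.5, 164.5, 210.6 and 30.0 CPM in the positive cells of the same collections, and 13.5, 173.3, 0.0542 and 16.4 CPM in the negative cells. It was thus 1.82-fold higher in E15 B1 and 1.83-fold in E20 B1, about equal in E17 B1, and confined almost wholly to the positive side in E17 B4. The fitted difference was 1.61 ± 1.78 log2 units (SE, n = 4, edgeR adjusted p = 0.965). It was 0.59 without E17 B4, 0.56 with a limit of 50 CPM, 0.69 with at least 3 cells per side and 10.45 ± 3.59 with a depth covariate (edgeR adjusted p = 0.361), so its size was not settled by these 4 collections. ENSMFAG00000018546 had 2 reads on the positive side in E17 B1 and 0 in the other 3 collections. On the negative side it had 380 reads (20.0 CPM) in E17 B1, where only 1 cell was positive for it, at 629.6 CPM. In E17 B4 all 132 reads on the negative side came from 1 cell. ENSMFAG00000032300 had 0 reads on the positive side in all 4 collections. With a floor of 3 reads per sum it was at least 131.5-fold lower there in E17 B4, where 1678 of the 1725 reads on the negative side came from cell 57. In E20 B1, which had helped choose this ID, 3512 of 3550 reads on the negative side came from cell 59.

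The IDs most like each member were ranked by the phi coefficient of positivity, a correlation of yes or no calls, averaged over collections with at least 3 positive and 3 negative cells, among 11446 other IDs with at least 20 positive cells (11447 for ENSMFAG00000032300). For ENSMFAG00000038308 they were ENSMFAG00000036141 (mean phi 0.672) and ENSMFAG00000028616 (0.667), over 6 collections. ENSMFAG00000036141 was positive in 77 cells, 56 of which were positive for ENSMFAG00000038308, and ENSMFAG00000028616 in 111 cells, 61 of which were. The chosen partner ENSMFAG00000018546 ranked 47th, at 0.477, where the 99th percentile of all IDs was 0.397. The 6 collections include the 4 that had chosen these IDs, so the ranks of members were set in part by that choice. ENSMFAG00000032399 ranked 11400th, at -0.247, and ENSMFAG00000044238 ranked 11285th, at -0.187, where the median ID lay at 0.0587.

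The IDs most like ENSMFAG00000018546, over 3 collections, were ENSMFAG00000004652 (0.693) and ENSMFAG00000000284 (0.665), and ENSMFAG00000038308 ranked 7th at 0.605. All 3 collections, E17 B5, E19 B1 and E20 B2, had helped choose both members. ENSMFAG00000028616 and ENSMFAG00000004652 were each positive in 27 of the 29 cells positive for ENSMFAG00000018546, and in 2 of the 58 positive for ENSMFAG00000044238. ENSMFAG00000028616 was also positive in 15 of the 19 cells positive for ENSMFAG00000032300, where 8.33 were expected. This ID was thus positive in most of the positive cells of 3 members, with 61 of 78 for ENSMFAG00000038308. It was rare in those of the other 2, with 6 of 132 for ENSMFAG00000032399.

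For ENSMFAG00000044238 the most alike IDs were ENSMFAG00000001847 (0.318) and ENSMFAG00000043543 (0.305) over 8 collections, and ENSMFAG00000032399 ranked 22nd at 0.256. For ENSMFAG00000032399 the first were ENSMFAG00000031457 (0.394) and ENSMFAG00000040789 (0.378) over 8 collections, and ENSMFAG00000044238 ranked 2513th at 0.161. These were in part other collections, with E11 B2, E15 B2 and E17 B5 in place of E17 B4, E19 B1 and E20 B2. Within a collection the phi of a pair is the same in both directions, so 0.256 and 0.161 differ only through the collections averaged. ENSMFAG00000031457 was positive in 260 cells, in 100 of the 132 positive for ENSMFAG00000032399 and in 38 of the 58 positive for ENSMFAG00000044238, but in 13 of the 78 positive for ENSMFAG00000038308, where 30.4 were expected. For ENSMFAG00000032300 only E11 B2 had enough positive cells, and the most alike IDs there were ENSMFAG00000031381 (0.887) and ENSMFAG00000031396 (0.717). All of these values are descriptions on cells that helped choose the members.

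Below the limit of 10 CPM, reads of an ID were found in a larger share of cells in the collections with a positive cell than in those without, with collections pooled. For ENSMFAG00000038308, 146 of 440 cells (33.2%) had reads under 10 CPM in the 9 collections with a positive cell, and 4 of 153 (2.61%) in the 6 without. ENSMFAG00000018546 gave 26.2% (79 of 301) against 0.685% (2 of 292), and ENSMFAG00000032300 17.6% (61 of 346) against 2.43% (6 of 247). For ENSMFAG00000044238 it was 24.6% (130 of 529) against 0 of 64 cells, and for ENSMFAG00000032399 34.2% (200 of 585) against 0 of 8. Single collections weighed heavily in this: without E11 B2 the share for ENSMFAG00000032300 was 5.88% (17 of 289), and without E19 B1 that for ENSMFAG00000018546 was 15.6% (39 of 250). Low readings were also missing from some collections with positive cells, 3 of 8 for ENSMFAG00000018546 and 2 of 8 for ENSMFAG00000032300. The median low reading was 1 to 3 reads. Median total counts were 2988189 and 2260498 per cell in the collections with and without cells positive for ENSMFAG00000038308, and 2270507 and 2946316 for ENSMFAG00000018546. They were 2656615 and 2753970 for ENSMFAG00000044238, 2594839 and 7778296 for ENSMFAG00000032399, and 3933161 and 1534359 for ENSMFAG00000032300. The part of depth in the low readings was not tested.

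In E17 B5, 70 of 71 cells had a read of ENSMFAG00000038308, although 30 were positive. In E19 B1, 50 of 51 cells had a read of ENSMFAG00000038308 and 50 of 51 a read of ENSMFAG00000018546, although 15 and 10 were positive. There 43 of 51 cells had a read of ENSMFAG00000044238, with 5 positive. In E11 B2, 55 of 57 cells had a read of ENSMFAG00000032300, with 11 positive. By contrast ENSMFAG00000018546 had no read in any of the 66 cells of E13 B2, the 87 of E15 B1 or the 63 of E20 B1. What set the low readings was not tested.

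Taken at any read, the counts lay closer, in proportion, to those of independent detection. Where nearly every cell of a collection had a read, as for ENSMFAG00000038308 in E17 B5 and E19 B1, observed and expected counts could hardly differ. Of 78 cells positive for ENSMFAG00000038308, 25 (32.1%) had a read of ENSMFAG00000044238, where detection independent of positivity within collections gave 26.7, and 47 (60.3%) had a read of ENSMFAG00000032399, where it gave 50.5. Of 29 cells positive for ENSMFAG00000018546, 12 had a read of ENSMFAG00000044238 and 13 one of ENSMFAG00000032399, where 15.5 were expected for each, and 27 (93.1%) had a read of ENSMFAG00000038308, where 23.6 were expected. Of 132 cells positive for ENSMFAG00000032399, 15 had a read of ENSMFAG00000018546, where 19.6 were expected. Of 58 cells positive for ENSMFAG00000044238, 43 (74.1%) still had a read of ENSMFAG00000032399, more than the 33.6 expected.

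**Figure D5:**
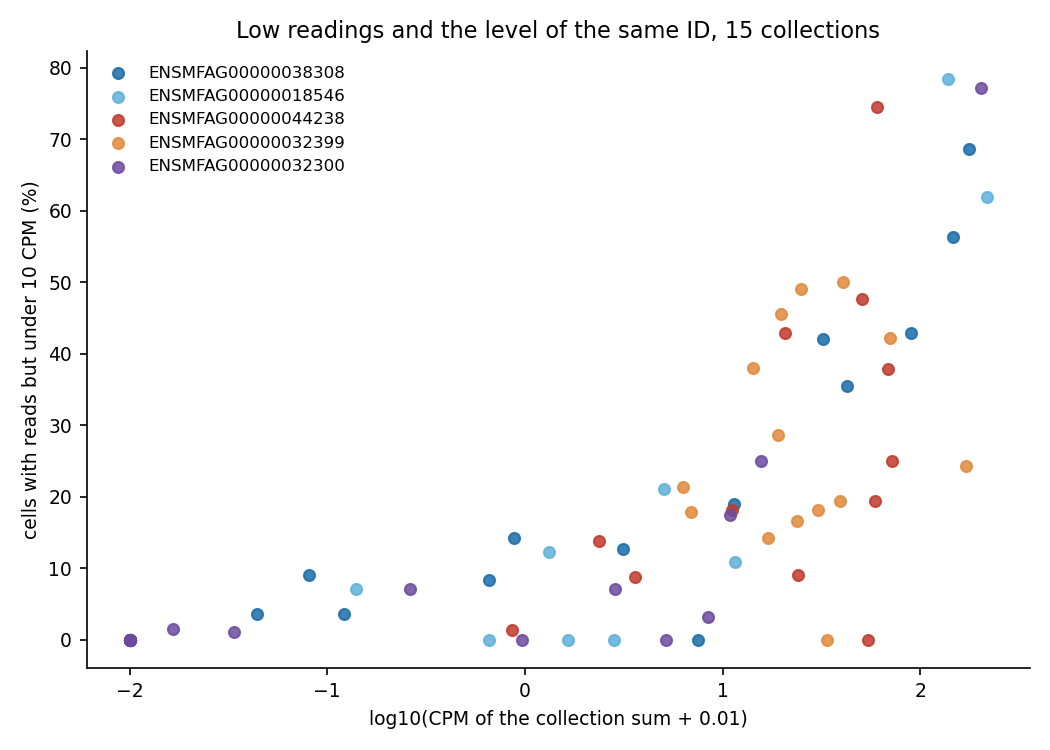
Percent of cells with reads of an ID but under 10 CPM (vertical axis) against the CPM of that ID in the sum of the collection (horizontal axis, log10 of CPM + 0.01), 1 point per ID and collection. Collections with no read of an ID lie at the far left, and the highest share is 78.4%, for ENSMFAG00000018546 in E19 B1.

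Detected genes and total counts differed between positive and negative cells and are given here. Cells positive for ENSMFAG00000032399 had a median of 7583.5 detected genes, against 6399 in the other cells, and more than the negative cells in 7 of the 8 collections with at least 3 cells on each side. For ENSMFAG00000044238 the medians were 6910 and 6733, and the positive cells had more in 7 of 8 collections. For ENSMFAG00000038308 they were 7054.5 and 6696, with more in 5 of 6 collections, and for ENSMFAG00000018546 7110 and 6710.5, with more in 3 of 3. For ENSMFAG00000032300 E11 B2 alone qualified, and the positive cells had fewer. Median total counts were higher in the positive cells in 5 of 6 collections for ENSMFAG00000038308, 3 of 3 for ENSMFAG00000018546, 6 of 8 for ENSMFAG00000044238 and 7 of 8 for ENSMFAG00000032399. Over all collections together the medians for ENSMFAG00000032399 were nearly equal, at 2638334 in positive and 2660370 in negative cells.

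ENSMFAG00000000004, the most abundant ID of the series, took a lower median share of counts in cells positive for 4 of the 5 IDs, and a higher one for ENSMFAG00000032300 (6.55% against 6.20%). Within collections its share was lower in positive cells in 7 of 8 for ENSMFAG00000044238, 6 of 8 for ENSMFAG00000032399 and 2 of 3 for ENSMFAG00000018546, but in 2 of 6 for ENSMFAG00000038308. Its median share was 2.43% in cells positive for ENSMFAG00000044238 and 6.96% in the others, and 3.06% against 7.28% for ENSMFAG00000032399. None of the 29 cells positive for ENSMFAG00000018546 had more than 20% of its counts in this ID, whereas 99 of the other 564 cells did. For ENSMFAG00000038308 these cells were 9 of 78 and 90 of 515. The part of depth and of this ID in the results above was not tested, although the shares of positive cells without the counts of ENSMFAG00000000004 stayed within the Wilson intervals given.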

How the data were processed

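The authors deposited 1 table of expected counts per gene ID and cell (estimated counts, not normalized), made with STAR 2.3.4 and RSEM per the submitters' processing notes. Which genome build and annotation they used was not given in the sources used here. Of its values 2.23% were not whole (tolerance 1e-06), none of them in the 5 IDs, and sums were made from values rounded to whole numbers. Depth was 107155 to 18828705 counts per kept cell. SMART-seq2 has no molecular identifiers, so intervals and the upper limits given for a count of 0 (3 counts) cover counting error only.

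The 5 IDs, the positivity limit and the tests were chosen with earlier results of these data known. A cell needed 100000 counts and 2000 detected genes to be kept, and 7 were left out. No doublet caller was run, since cells were picked by hand. Cells are not replicates, so tests used sums per collection: edgeR 4.0.16 (R 4.3.3; quasi-likelihood, TMM, filterByExpr, threshold 0.05), with the day as a number, or with the collection as a block and the side as the effect. Of 3 planned splits, those by ENSMFAG00000038308 and ENSMFAG00000032300 had too few collections to be fitted. Named IDs were the 5, the 2 most alike IDs of each, and at most 2 per direction in each test (log2 fold change of at least 1, or 0.1 per day, and mean log2 CPM of at least 5). The 1 ID that this named in the day fit is no member and is not described. Alternatives were DESeq2 1.42.0, limma 3.58.1 on mean log2(CPM + 1), RLE factors, no filter, other limits for cells and positivity, thinning to 100000 counts, a depth covariate and the removal of each collection. The removal of the collection with most low readings of an ID was chosen after seeing the data. Simulated data, in which 200 IDs had a set slope or difference, served to check both fits. The day fit found 5.97% of slopes of 0.2 log2 units per day, 58.2% of 0.5 and 98.5% of 1. The split fit found 2.99% of differences of 2 log2 units, 43.3% of 4 and 93.9% of 8. Both fits thus missed most of the smallest changes, and a member without a call is not shown to be unchanged. Of the calls in the simulated data, 9.24% (day) and 6.06% (split) were IDs without a set change, against a threshold of 0.05. In the split fit ENSMFAG00000018546 and ENSMFAG00000032300 were scarce, with average log2 CPM of 1.12 and 1.77. Their differences of -7.08 and -12.8 log2 units were not called, so the rates found cannot be carried over to these 2 IDs.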

Additional observations from a re-analysis of the deposited data

Results flagged for a closer look

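In the 4 collections of the split by ENSMFAG00000044238, each member's TMM-scaled CPM was looked at on each side for a collection far from the other 3 (Dixon's test), in 9 groups of 4 values, of which 4 stood apart. Chance sets about 1 in 20 such groups apart, and in IDs that are 0 in several collections a lone value stands apart readily. In cells positive for ENSMFAG00000044238, ENSMFAG00000038308 was at 16.0 CPM in E15 B1, from 1 cell, and ENSMFAG00000018546 at 0.120 CPM in E17 B1, from 2 reads. In the negative cells of E17 B1, ENSMFAG00000018546 was at 16.4 CPM, with 380 reads, and only 1 of these cells reached 10 CPM of it. Over all negative cells of E17 B1 ENSMFAG00000032399 was at 142.0 CPM, in the collection where 73.0% of all cells were positive for it.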

How the results depend on the processing

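The share of ENSMFAG00000038308 positive cells that were also positive for ENSMFAG00000018546 stayed within its Wilson interval under all alternatives, at 24.5% to 38.6%, and at 23.8% to 39.6% with each collection left out. For ENSMFAG00000032300 it was 5.66% to 11.3%, and 4.48% to 14.6% with each collection left out. The share also positive for ENSMFAG00000044238 was 17.7% with a limit of 1 CPM and 0% with 50 CPM, against 2.56%, and 1.32% to 4.17% with each collection left out. For ENSMFAG00000032399, at 8.97%, it was 39.2% with 1 CPM, 18.9% with 5 CPM, 0% with 50 CPM and 18.6% with cells thinned to 100000 counts, and 2.08% to 11.1% with each collection left out, lowest without E17 B5. The number of IDs called with the day, 2, was 166 with DESeq2 (113 higher, 53 lower), 6 without a filter, 18 with at least 5 cells per collection, and 0 with limma, with the depth covariate and without the collections with dots in their titles. It was 0 to 3 with each collection left out: 0 without E09 B2, E11 B2, E13 B2, E15 B3, E17 B4 or E19 B1, and 1 without E13 B1. With the B number as a replicate block it was 1. The labels do not say that this number pairs collections, and deviations from the day means correlated at -0.0271 on average in 16 pairs with the same number, with 1 of 9 collections correlating best with its own number. The number called in the split by ENSMFAG00000044238, 0, was 403 with DESeq2 (15 higher, 388 lower) and 0 under the other alternatives, no replicate block among them. No member was called in either fit under any alternative, with adjusted p of 0.0576 or more. The slope of ENSMFAG00000032300, -0.43, was -0.61 to 0.17 with each collection left out, the last without E11 B2, and no other slope or difference changed sign. The cause of these changes was not tested. In the split, ENSMFAG00000018546 and ENSMFAG00000032300 were not among the tested IDs with a limit of 50 CPM or without E17 B4, nor the former without E17 B1 and the latter without E20 B1, so these fits give no value. The shares of kept cells positive were 26.6%, 12.8%, 18.2%, 37.8% and 5.40% with a limit of 1 CPM, in the order in which the IDs are first named.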

Other observations

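Of the 7 cells left out for few counts or genes, 3 were positive for at least 1 of the 5 IDs. In the 4 collections of the first comparison 32.0% of 200 cells were positive for ENSMFAG00000038308 and 12.5% for ENSMFAG00000018546, against 3.56% and 1.02% of the 393 cells of the other collections. For ENSMFAG00000032399 the shares were 23.5% and 21.6%, and for ENSMFAG00000044238 7.00% and 11.2%. The first comparison had chosen these 4 IDs, so the contrasts are descriptions with no test. The second comparison, which chose ENSMFAG00000032300, used collections in which 5.91% of 237 cells were positive for it.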
